A study of Homo sapiens with 28 samples.

Results

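The mitosis genes described here are 35 human genes whose products drive the cell from the end of DNA replication through chromosome segregation and division. They were found by symbol among the 18961 amplicons of a targeted expression assay, all 35 had a row, and all 35 were among the 13100 genes that passed the filter on low reads. The members were listed by function and not by their values, but with earlier results of these data known. They were read in 4 human liver tumour cell lines grown in culture dishes (in vitro) and as tumours in fertilised white leghorn chicken eggs (in ovo). The labels call all of them hepatoma lines; HepG2 is known to derive from a hepatoblastoma, a childhood tumour, and the rest from hepatocellular carcinoma. For the tumours, cells in a graft medium were laid on the chorioallantoic membrane, a well vascularised membrane outside the chick embryo, at embryonic day 9 and the tumours were taken at day 18. Each line gave 3 cultures and 4 tumours, 28 libraries in all, and the labels name no drug, genotype or other agent. The question of the design is how each line differs between the dish and the egg. Whether a replicate stands for its own dish or egg is not labelled, so the p-values reflect library-to-library spread, part of which may be technical. Each line stands for itself, and 4 lines cannot stand for liver tumours at large.

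Entry into mitosis is driven by the kinase CDK1 bound to cyclin A or B, and by the Aurora and Polo kinases that act beside it. The spindle is built by kinesins and microtubule-binding proteins, attached to chromosomes at kinetochores, and watched by checkpoint kinases that hold back the anaphase-promoting complex, a ubiquitin ligase. Most of these genes are transcribed late in the cell cycle, and their promoters are known for a CHR element (the letters TTTGAA or TTTAAA), bound by the MuvB complex, and CCAAT boxes, bound by NF-Y, so that their summed RNA is often read as a measure of dividing cells.

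The promoters of the members share these letters, which the choice of members did not use. RefSeq entries (GRCh38.p14), which cover 250 bases before and 50 after a start, were held for 29 of the 35 members. Either CHR form, on either strand, was found in 25 of 29 entries (86.21%) against 23.99% of 35116 entries of the same length, and CCAAT in 23 (79.31%) against 34.61%. Both were found in 20 of 29 (68.97%) against 9.269%. TTTGAA alone was in 21 (72.41%, against 15.16%) and TTTAAA in 12 (41.38%, against 12.24%). Matches were allowed to overlap, and a match of letters is a description, not a bound site. To show the arrangement, the 150 bases before the start follow for 5 members of different roles, 5′ to 3′ on the gene's strand, with CHR letters and CCAAT (or ATTGG, its reverse complement) in capitals. They are CCNB2 (chr15:59104996-59105145, plus strand), CDC20 (chr1:43358831-43358980, plus), KIF20A (chr5:138178962-138179111, plus), PRC1 (chr15:90994536-90994685, minus) and MKI67 (chr10:128126424-128126573, minus).
CCNB2: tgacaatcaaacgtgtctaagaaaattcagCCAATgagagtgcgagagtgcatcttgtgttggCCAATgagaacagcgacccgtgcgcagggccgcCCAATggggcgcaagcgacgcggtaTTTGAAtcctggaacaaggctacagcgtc
CDC20: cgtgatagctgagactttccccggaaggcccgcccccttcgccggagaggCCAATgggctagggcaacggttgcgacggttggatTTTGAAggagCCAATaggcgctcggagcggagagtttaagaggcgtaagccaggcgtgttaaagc
KIF20A: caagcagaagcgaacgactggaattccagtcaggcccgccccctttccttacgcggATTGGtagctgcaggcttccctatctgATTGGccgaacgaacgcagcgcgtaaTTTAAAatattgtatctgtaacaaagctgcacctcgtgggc
PRC1: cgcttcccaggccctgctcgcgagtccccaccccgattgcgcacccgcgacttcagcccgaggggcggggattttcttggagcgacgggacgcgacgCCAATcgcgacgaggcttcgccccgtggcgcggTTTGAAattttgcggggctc
MKI67: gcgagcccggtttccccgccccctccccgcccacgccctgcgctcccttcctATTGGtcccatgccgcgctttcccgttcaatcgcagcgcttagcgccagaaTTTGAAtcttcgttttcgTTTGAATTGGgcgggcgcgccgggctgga
In CCNB2 the TTTGAA begins at position -29 from the start, and CCAAT boxes lie upstream at -54, -87 and -120. In CDC20 a TTTGAA at -65 stands between CCAAT boxes at -100 and -55. KIF20A carries the TTTAAA form at -41, with reverse CCAAT boxes at -67 and -94. In PRC1 the order is CCAAT at -53 and TTTGAA at -20. MKI67 has TTTGAA at -47 and -29, the second of which shares letters with a reverse CCAAT at -24.

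Each gene was read through 1 amplicon, so levels can be compared between libraries but not between genes. The 35 amplicons matched GENCODE 29 transcripts exactly and lay wholly in coding sequence; 28 spanned 2 or more exons and 7 lay within 1. That of NUSAP1 also matched AC087721.2, so its reads may come from either. The amplicons were 73 to 266 bases long, with a median of 143, and the values below are set against their length further on. A short and a long one follow for comparison, both on GRCh38 and on the plus strand. The amplicon of TPX2, an activator of Aurora A, has 92 bases in exons 11 and 12 (chr20:31782362-31783767). That of CDK1 has 230 bases in exons 3 and 4 (chr10:60784740-60785771).
TPX2: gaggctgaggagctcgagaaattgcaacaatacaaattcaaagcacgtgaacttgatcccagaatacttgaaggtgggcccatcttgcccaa
CDK1: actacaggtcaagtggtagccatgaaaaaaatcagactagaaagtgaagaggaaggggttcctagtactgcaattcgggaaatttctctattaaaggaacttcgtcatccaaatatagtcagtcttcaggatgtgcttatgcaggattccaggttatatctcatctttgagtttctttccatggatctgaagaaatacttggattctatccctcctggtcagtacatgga

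Depth was 6205368 to 8662998 reads per culture and 6085750 to 15086465 per tumour, and 3 reads, taken as the floor, corresponded to 0.199 to 0.493 CPM (reads scaled to a common library size) before scaling. This floor covers counting error only, since amplified reads carried no molecular identifiers. RNA was extracted with a mini kit from cultures and a midi kit from tumours, so kit and condition cannot be told apart. Codes that open the deposited column names, which no label explains, also separate all tumours from all cultures. Whether the RNA of a tumour also held chicken RNA is not labelled. The hepatocyte markers (9 genes) summed to 3979 to 216508 CPM in HepG2, Hep3B and HuH7, but to 20.2 to 25.6 CPM in PLC/PRF/5 cultures, where ALB and TTR were at 0, and to 609.6 to 1623 in its tumours. Markers of endothelial cells summed to at most 60.3 CPM, of leukocytes to at most 394 and of fibroblasts to at most 864, and the 4 erythroid markers in the table were at 0 in every library. The in ovo library numbered 3 stood apart in every line. It lay below the other tumours of its line for 21 of 35 members in HepG2, 21 in Hep3B and 23 in HuH7, with 17 in PLC/PRF/5, and above all of them for 10, 9, 7 and 7. The counts of members called in each line, in the HepG2 divergence and in HepG2 against the other lines in ovo are therefore also given without these 4 libraries; other counts include them.

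The mean level of the mitosis genes, which was not tested, was higher in tumours than in cultures of HepG2 and lower in tumours of the other 3 lines. The members called singly are counted after the description of the level. The mean of log2(CPM + 1) over the 35 members was 4.36 ± 0.0289 (SD, n = 3) in HepG2 cultures and 5.00 ± 0.276 (n = 4) in HepG2 tumours. It went from 5.71 ± 0.00964 to 4.59 ± 0.262 in Hep3B, from 5.67 ± 0.00179 to 4.80 ± 0.321 in HuH7 and from 5.86 ± 0.0322 to 5.38 ± 0.0948 in PLC/PRF/5. In no line did the ranges of cultures and tumours overlap. The cultures of a line lay within a few hundredths of each other and the tumours spread far more. In bulk RNA, fewer dividing cells and less RNA per cell cannot be told apart.

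**Figure D1:**
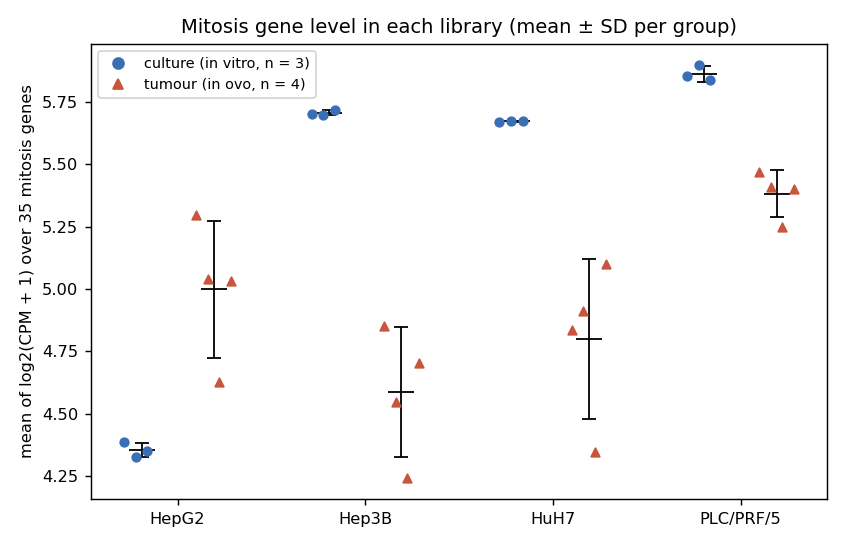
Mean of log2(CPM + 1) over the 35 mitosis genes (vertical axis) in each of the 28 libraries by cell line, with circles for cultures (n = 3), triangles for tumours (n = 4) and bars for mean ± SD. The HepG2 cultures, at 4.33 to 4.39, lie below every other culture, while the tumours of the 4 lines lie between 4.24 and 5.47.

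By limma, with Benjamini-Hochberg adjustment over all 13100 genes and a call at an adjusted p under 0.05, 19 of 35 members rose in HepG2 tumours and 0 fell, while 12.1% of all genes rose and 13% fell. In Hep3B 24 members fell and 1 rose, against 27.4% and 24.6% of all genes. In HuH7 21 fell and 0 rose, against 19.8% and 23.6%. In PLC/PRF/5 5 fell and 0 rose, against 5.61% and 11.9%. The median log2 difference of the members was 0.76 in HepG2, -0.96 in Hep3B and -0.90 in HuH7, with -0.34 in PLC/PRF/5, and that of all genes was -0.01, -0.05, 0.01 and 0.07. At an unadjusted p under 0.05 by limma, 0 members were lower in HepG2, 0 higher in HuH7 and 1 higher in PLC/PRF/5, and edgeR on recovered reads also called 0 in each of these. In HepG2 29 of 35 members had a positive value, and in Hep3B, HuH7 and PLC/PRF/5 32, 33 and 32 a negative one. Without the 4 libraries numbered 3, 24 rose in HepG2, 26 fell in Hep3B and 21 in HuH7, with 13 in PLC/PRF/5, where 1 rose (UBE2C). Of all genes, 17.9% were then called higher in HepG2, and 32.3%, 23.2% and 11.3% lower in Hep3B, HuH7 and PLC/PRF/5. The PLC/PRF/5 count is the least settled, at 1 to 5 when single libraries were left out. It was 1 without culture 2, 2 without culture 3 or tumour 3 and 3 without culture 1. No share of all genes is given for these refits.

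Read without a model, every tumour lay above every culture for 20 members in HepG2, where 18.2% of all genes did so, and below for 0 (21.3%). Every tumour lay below every culture for 25 members in Hep3B (28.8% of all genes), 21 in HuH7 (23%) and 20 in PLC/PRF/5 (16.1%). In the opposite direction there was 1 member in Hep3B (CCNF, 26.8%), 0 in HuH7 (25.5%) and 0 in PLC/PRF/5 (23.4%). The 20 of PLC/PRF/5 included the 5 called, so most of these 20 had separate ranges without passing the test.

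**Figure D2:**
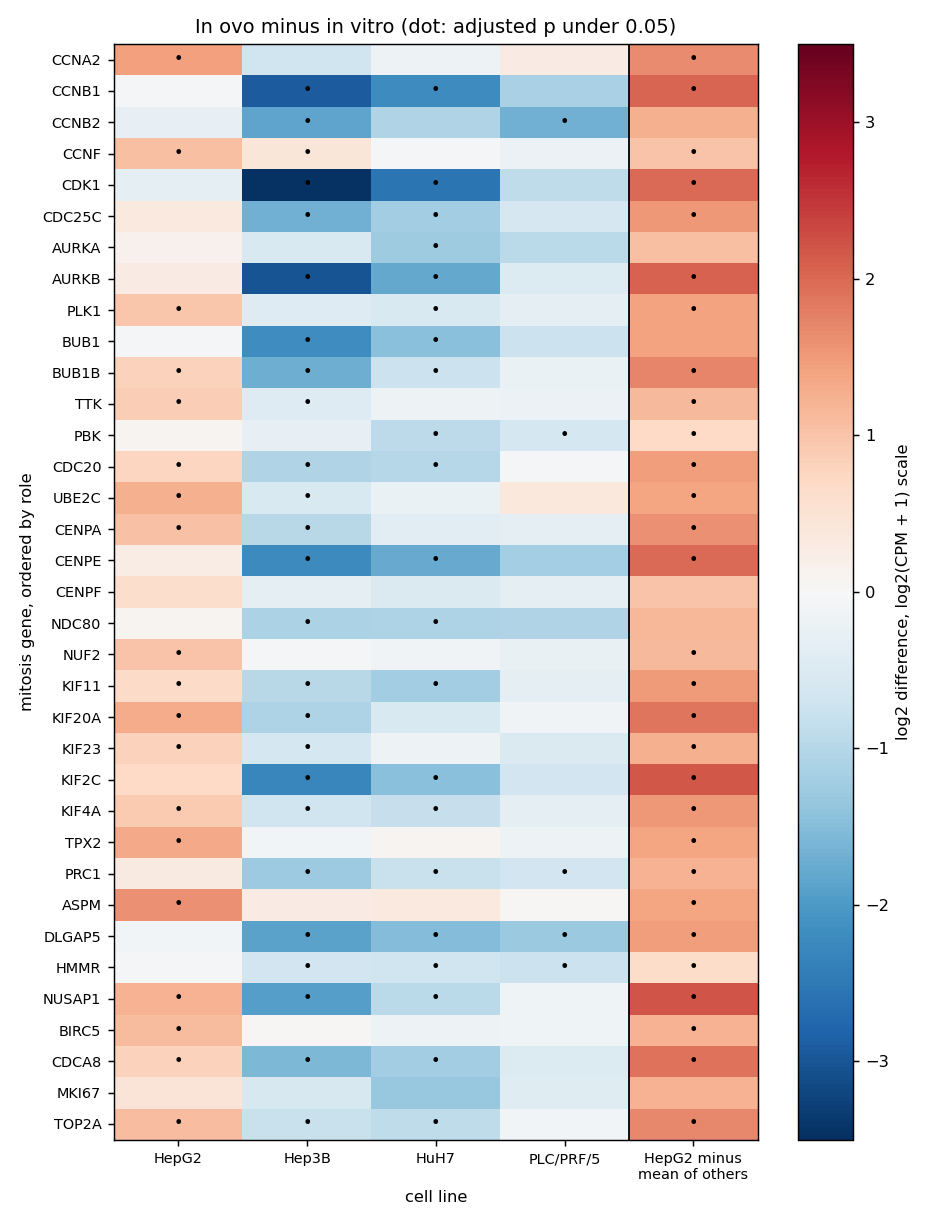
Difference in ovo minus in vitro on the log2(CPM + 1) scale (colour) for the 35 mitosis genes (rows, ordered by role) in each line, with the HepG2 response minus the mean response of the other lines in the last column; dots mark an adjusted p under 0.05 by limma. The HepG2 column holds 19 dots, all on positive values, the Hep3B column 24 on negative values and 1 on a positive one, and the last column 29, all positive.

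Among the cyclins, CDK1 and its activator CDC25C, 2 of 6 rose in HepG2, 4 fell and 1 rose in Hep3B, 3 fell in HuH7 and 1 fell in PLC/PRF/5. CCNB1, cyclin B1, stood in Hep3B at 45.1, 50.5 and 51.5 CPM in the cultures and 14.5, 4.78, 1.04 and 9.94 in the tumours. Every tumour was below every culture (-2.902 ± 0.56, adjusted p = 0.000163). In HuH7 it went from 59.1, 57.4 and 60.5 CPM to 11.96, 18.6, 2.697 and 30.3, the largest called change of that line among members averaging at least 10 CPM (-2.196 ± 0.56, adjusted p = 0.00311). In PLC/PRF/5 the values were 85.6, 98.9 and 83.8 CPM in the cultures and 46.1, 41.3, 37.6 and 35.1 in the tumours, with no overlap, but the difference of -1.14 did not pass the test (adjusted p = 0.17). HepG2 cultures were already low, at 20.03, 15.3 and 16.1 CPM, and its tumours, at 29.9, 18.9, 6.902 and 18.4, lay on both sides of them (-0.04 ± 0.56, adjusted p = 0.991).

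CDK1, the kinase that cyclins A and B activate, was read at few CPM. In Hep3B it was at 19.3, 15.3 and 16.8 CPM in the cultures and 2.98, 0.252, 0 and 0.462 in the tumours, the last 3 tumours being under the floor of 3 reads. The difference was -3.46 ± 0.54 on a scale that understates changes at such levels (adjusted p = 1.42e-05). HuH7 gave 15.8, 13.4 and 17.6 CPM in the cultures and 1.16, 2.04, 0.169 and 6.86 in the tumours, again without overlap (-2.57 ± 0.54, adjusted p = 0.000582). In PLC/PRF/5 the cultures had 18.8, 22.1 and 20.5 CPM and the tumours 11.8, 18.7, 6.35 and 8.901, the second just below the cultures and the rest well below, without passing the test (-0.88 ± 0.54, adjusted p = 0.294). In HepG2 the cultures had 4.795, 3.33 and 3.56 CPM and the tumours 7.89, 3.999, 0.394 and 2.61, which overlapped them (-0.33 ± 0.54, adjusted p = 0.712).

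CCNF, the F-box cyclin that directs substrates to a ubiquitin ligase, was the single member that rose in Hep3B. Its values there were 113, 108 and 106 CPM in the cultures and 149, 154, 135 and 149 in the tumours, a small and separate shift (0.42 ± 0.15, adjusted p = 0.0207) that was not called without culture 2 or culture 3 and turned negative, at -0.55, when libraries were scaled by their totals alone. In HepG2 it rose from 47.1, 51.9 and 52.7 CPM to 92.1, 105, 106 and 124 (1.06 ± 0.15, adjusted p = 6.54e-06). HuH7 had 141, 138 and 140.2 CPM in the cultures and 152, 148, 106 and 147 in the tumours (-0.03 ± 0.15, adjusted p = 0.9), and PLC/PRF/5 118, 110.02 and 108 CPM in the cultures and 112, 72.2, 109 and 98.1 in the tumours (-0.21 ± 0.15, adjusted p = 0.367), both overlapping. CCNA2, cyclin A2, which acts from DNA replication into early mitosis, rose in HepG2 from 53.7 ± 5.67 to 157 ± 61.9 CPM (mean ± SD; 1.45 ± 0.36, adjusted p = 0.00384) and was called in no other line. CCNB2, a second cyclin B, fell in Hep3B (-1.85, adjusted p = 0.00324) and in PLC/PRF/5 (-1.69, adjusted p = 0.0179). Its reads were few, at 2 to 18 per Hep3B tumour and 11 to 74 per PLC/PRF/5 tumour. CDC25C, the phosphatase that activates CDK1, fell in Hep3B (-1.69, adjusted p = 0.000174) and HuH7 (-1.21, adjusted p = 0.00497).

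**Figure D3:**
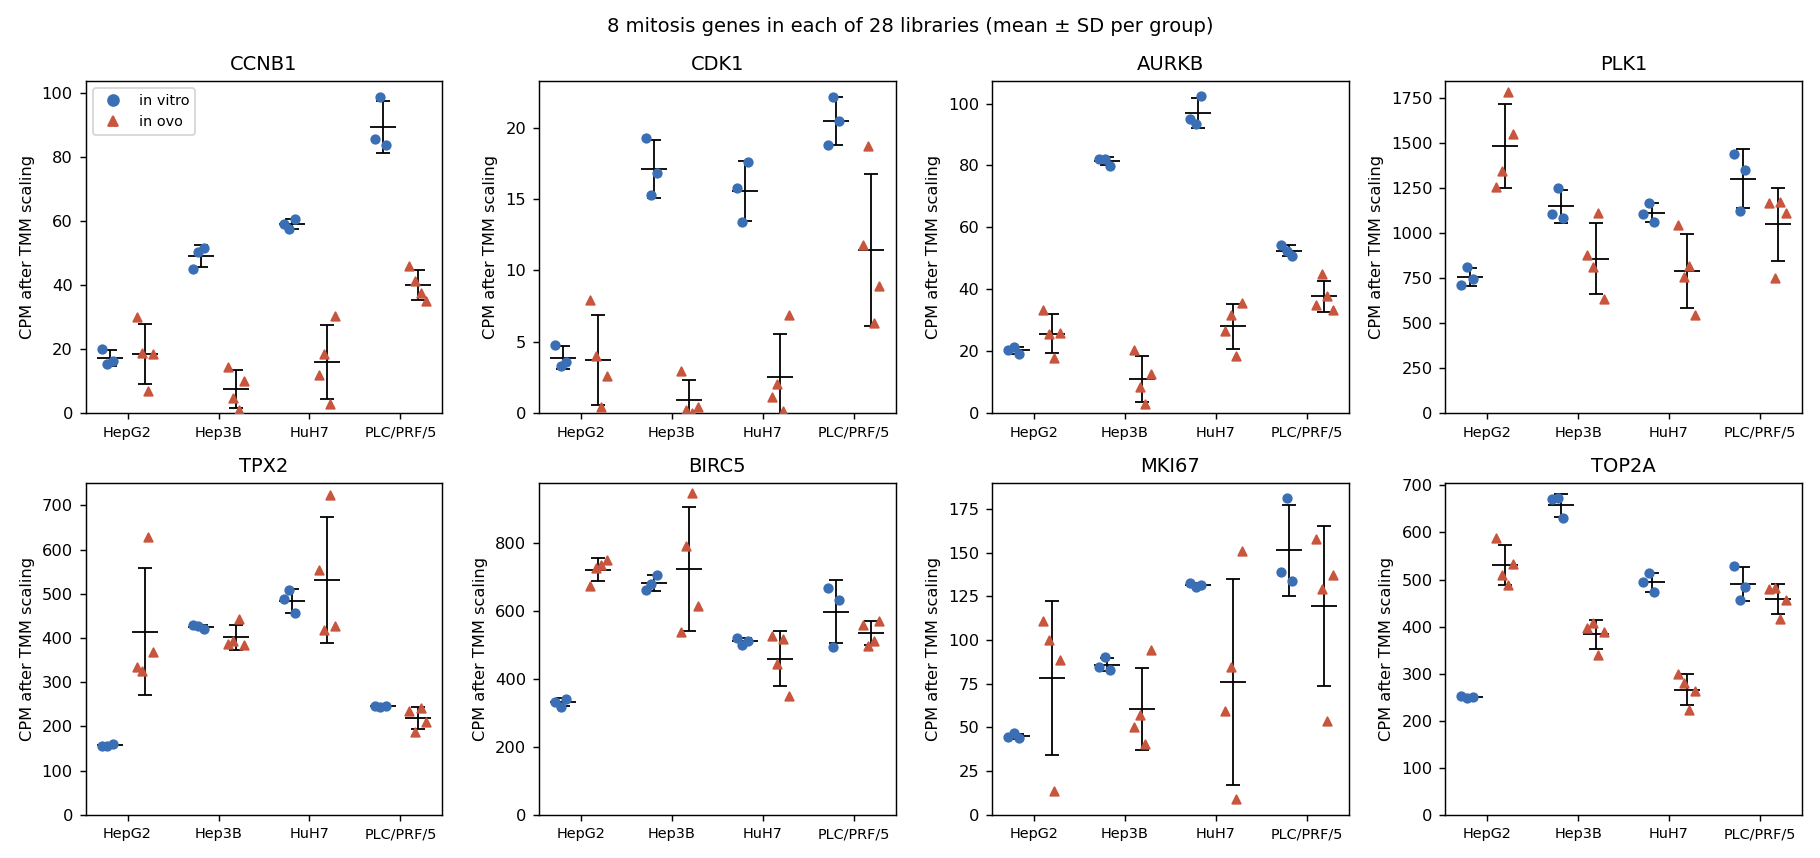
CPM after TMM scaling (vertical axes, from 0) of CCNB1, CDK1, AURKB, PLK1, TPX2, BIRC5, MKI67 and TOP2A in each of the 28 libraries, with circles for cultures, triangles for tumours and bars for mean ± SD per group. AURKB shows the fall in Hep3B, from about 80 CPM in the cultures to 2.85 to 20.3 in the tumours, and TOP2A the rise in HepG2, from 248 CPM or slightly above to 489 to 588.

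Of the 7 mitotic kinases, 3 rose in HepG2 (PLK1, BUB1B, TTK), 4 fell in Hep3B and 6 in HuH7, with 1 in PLC/PRF/5. AURKB, the catalytic subunit of the chromosomal passenger complex, showed the largest called change of Hep3B among members averaging at least 10 CPM. The Hep3B values were 82.1, 82.1 and 79.8 CPM in the cultures and 20.3, 8.31, 2.85 and 12.5 in the tumours, every tumour far below every culture (-3.03 ± 0.34, adjusted p = 1.01e-07). HuH7 fell likewise, with 95.01, 93.2 and 102 CPM in the cultures and 26.5, 31.6, 18.5 and 35.5 in the tumours (-1.79 ± 0.34, adjusted p = 0.000174). PLC/PRF/5 had 54.3, 52.5 and 50.7 CPM in the cultures and 35.05, 44.9, 37.7 and 33.4 in the tumours, all tumours below all cultures, with a difference of -0.47 that did not pass (adjusted p = 0.377). HepG2 cultures stood at 20.5, 21.3 and 19.02 CPM and tumours at 33.2, 25.4, 17.9 and 25.96, overlapping through tumour 3 (0.295 ± 0.34, adjusted p = 0.566).

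PLK1, the Polo kinase of centrosomes and kinetochores, rose in HepG2, from 712, 812 and 744 CPM to 1258, 1344, 1784 and 1549, with no overlap (0.96 ± 0.21, adjusted p = 0.00132). In HuH7 it went from 1109, 1167 and 1063 CPM to 1045, 755, 818 and 546, every tumour lying below every culture. That difference was the smallest called in HuH7 at this level (-0.53 ± 0.21, adjusted p = 0.0457), and the call was lost in 20 of 28 refits that left out 1 library (adjusted p 0.0158 to 0.167). Hep3B had 1109.5, 1252 and 1086 CPM in the cultures and 877, 812, 1113 and 632 in the tumours, the third tumour overlapping the cultures (-0.45 ± 0.21, adjusted p = 0.0798). PLC/PRF/5 had 1441, 1122 and 1349 CPM in the cultures and 1168, 749.6, 1172 and 1109.95 in the tumours, also overlapping (-0.33 ± 0.21, adjusted p = 0.322).

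The checkpoint kinases differed among themselves. BUB1B, whose product BubR1 inhibits the anaphase-promoting complex, rose in HepG2 from 25.3 ± 1.59 to 45.1 ± 2.35 CPM (0.81 ± 0.16, adjusted p = 0.000354) and fell in Hep3B from 124 ± 5.28 to 37.7 ± 8.83 (-1.72 ± 0.16, adjusted p = 4.41e-09) and in HuH7 from 66.6 ± 5.24 to 39.2 ± 7.01 (-0.76 ± 0.16, adjusted p = 0.000447). TTK, the kinase Mps1, rose in HepG2 (0.85, adjusted p = 0.000891) and fell in Hep3B (-0.45, adjusted p = 0.039). BUB1 fell in Hep3B (-2.17) and HuH7 (-1.46; adjusted p = 0.00132 and 0.0265), with -0.05 in HepG2. AURKA, which matures centrosomes, fell in HuH7 (-1.24, adjusted p = 0.0361). PBK, a kinase active in mitosis, was under 3 reads in 13 of 28 libraries; its calls in HuH7 (-0.92, adjusted p = 0.00129) and PLC/PRF/5 (-0.63, adjusted p = 0.0409) rest on very few reads.

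Both partners of the anaphase-promoting complex rose in HepG2. CDC20, the co-activator that targets cyclin B and securin for destruction, went from 58.1 ± 2.25 to 100.4 ± 21.7 CPM in HepG2 (0.76 ± 0.16, adjusted p = 0.00075). It fell from 165 ± 2.36 to 78.8 ± 8.34 in Hep3B (-1.06 ± 0.16, adjusted p = 7.13e-06) and from 289 ± 13.3 to 146 ± 23.5 in HuH7 (-1.0004 ± 0.16, adjusted p = 2.05e-05), and was 143 ± 9.04 and 137 ± 18.1 in PLC/PRF/5 (-0.07 ± 0.16, adjusted p = 0.82). UBE2C, the ubiquitin-conjugating enzyme of the complex, rose in HepG2 from 78.7 ± 8.88 to 186 ± 4.52 CPM (1.24 ± 0.16, adjusted p = 2.14e-06) and fell in Hep3B from 360.2 ± 7.17 to 250.4 ± 32.9 (-0.53 ± 0.16, adjusted p = 0.00795).

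Of the 5 centromere and kinetochore genes, 2 rose in HepG2, 3 fell in Hep3B and 2 in HuH7. CENPA, the histone H3 variant of centromeres, rose in HepG2 (1.03 ± 0.299, adjusted p = 0.0128), from 5 to 11 reads per culture to 11 to 32 per tumour, and fell in Hep3B (-0.98 ± 0.299, adjusted p = 0.00869), where 3 of 4 tumours had under 3 reads. NUF2, which with NDC80 forms the outer kinetochore complex that grips microtubules, rose in HepG2 (0.99 ± 0.26, adjusted p = 0.00527) from 6.69 ± 0.588 to 14.9 ± 5.44 CPM. NDC80 was at 0.097 there and fell in Hep3B (-1.104, adjusted p = 0.0289) and HuH7 (-1.09, adjusted p = 0.0367), the second of which was not called without the libraries numbered 3. NDC80 had 1 to 15 reads per Hep3B tumour and 0 to 36 per HuH7 tumour. CENPE, the kinetochore motor, fell in the same lines (-2.24 and -1.78, adjusted p = 0.00315 and 0.0189). CENPF, a large kinetochore protein, was called in no line.

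Of the 5 kinesins, 4 rose in HepG2 and all 5 fell in Hep3B, with 3 falling in HuH7. KIF11, the motor that keeps the spindle bipolar, gave the smallest called change of HepG2 at 10 CPM or more. The HepG2 values were 25.7, 25.4 and 25.7 CPM in the cultures and 48.9, 43.2, 27.6 and 49.00 in the tumours, the lowest tumour being number 3 (0.66 ± 0.24, adjusted p = 0.0415); the call was lost in 15 of 28 refits without 1 library (adjusted p 0.00917 to 0.107). In Hep3B it fell from 73.7, 69.96 and 71.9 CPM to 26.9, 36.5, 52.3 and 33.98 (-0.96 ± 0.24, adjusted p = 0.00173). In HuH7 it fell from 93.5, 93.5 and 93.1 CPM to 63.4, 38.4, 24.8 and 41.5 (-1.21 ± 0.24, adjusted p = 0.000279), and in both lines the groups were far apart. PLC/PRF/5 had 78.7, 75.3 and 79.5 CPM in the cultures and 66.2, 58.9, 49.3 and 74.4 in the tumours, narrowly separate and not called (-0.33 ± 0.24, adjusted p = 0.376).

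KIF4A, a chromokinesin that also acts at the midzone, rose in HepG2 from 16.99 ± 1.66 to 32.9 ± 3.82 CPM (0.91 ± 0.13, adjusted p = 1.11e-05), and fell in Hep3B from 43.6 ± 2.71 to 26.5 ± 3.32 (-0.703 ± 0.13, adjusted p = 0.000132) and in HuH7 from 59.3 ± 2.24 to 33.9 ± 4.13 (-0.795 ± 0.13, adjusted p = 4.57e-05). KIF20A, needed for cytokinesis, rose in HepG2 (1.299, adjusted p = 0.000628) and fell in Hep3B (-1.08, adjusted p = 0.00175). KIF23, the centralspindlin motor, did the same at 0.81 and -0.62 (adjusted p = 0.0169 and 0.038). KIF2C, which takes microtubules apart to correct attachments, fell from 18.2 ± 0.329 to 3.49 ± 2.28 CPM in Hep3B (-2.27 ± 0.37, adjusted p = 2.78e-05) and from 19.5 ± 1.63 to 7.02 ± 3.55 in HuH7 (-1.47 ± 0.37, adjusted p = 0.00311).

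The 6 spindle and midzone proteins divided. TPX2, ASPM and NUSAP1 rose in HepG2, while PRC1, DLGAP5 and HMMR fell in each of the other 3 lines and were not called in HepG2. TPX2 had 156, 155 and 159.96 CPM in the cultures and 335, 325, 628 and 368 in the tumours in HepG2, with tumour 3 far above the rest (1.34 ± 0.19, adjusted p = 8.16e-06). In Hep3B the values were 429, 428 and 421 CPM in the cultures and 385, 393, 443 and 384 in the tumours (-0.09 ± 0.19, adjusted p = 0.73). In HuH7 they were 489, 508 and 455 CPM in the cultures and 555, 419, 723 and 427 in the tumours, the tumours lying on both sides of the cultures (0.098 ± 0.19, adjusted p = 0.714). In PLC/PRF/5 the cultures had 247, 244 and 246 CPM and the tumours 236, 187, 242 and 209.8, just below them (-0.18 ± 0.19, adjusted p = 0.602).

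ASPM, a spindle pole protein, showed the largest called rise of HepG2. Its HepG2 values were 44.4, 47.7 and 44.7 CPM in the cultures and 90.9, 91.02, 469 and 98.9 in the tumours (1.599 ± 0.43, adjusted p = 0.00697), and without the libraries numbered 3 the difference was 1.07 (adjusted p = 1.1e-07 by limma). Tumour 3 of HuH7 was also high, with 157, 162 and 169 CPM in the cultures and 155, 149.96, 572 and 133 in the tumours there (0.34 ± 0.43, adjusted p = 0.555). Hep3B had 296, 294 and 284 CPM in the cultures and 281, 342, 425 and 391 in the tumours (0.29 ± 0.43, adjusted p = 0.603) and PLC/PRF/5 223, 206 and 213 CPM in the cultures and 216, 203, 227 and 231 in the tumours (0.03 ± 0.43, adjusted p = 0.983), so that outside HepG2 the groups overlapped in every line.

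PRC1, which bundles antiparallel microtubules at the midzone, gave the single PLC/PRF/5 call at 10 CPM or more. Its PLC/PRF/5 values were 129.9, 104 and 123 CPM in the cultures and 76.2, 73.4, 71.1 and 76.5 in the tumours, with no overlap (-0.67 ± 0.14, adjusted p = 0.00166). Hep3B went from 90.2, 91.2 and 88.1 CPM to 38.8, 36.01, 27.96 and 46.2 (-1.27 ± 0.14, adjusted p = 1.35e-07). HuH7 went from 71.8, 62.7 and 64.7 CPM to 36.01, 39.5, 35.4 and 43.4 (-0.77 ± 0.14, adjusted p = 0.000156), and in HepG2, at 23.6, 24.2 and 21.5 CPM in the cultures and 29.3, 28.8, 25.4 and 33.5 in the tumours, every tumour lay slightly above every culture without a call (0.33 ± 0.14, adjusted p = 0.0997). DLGAP5, which stabilises kinetochore fibres, fell by 1.87 on the log2 scale in Hep3B, by 1.53 in HuH7 and by 1.29 in PLC/PRF/5 (adjusted p = 0.000365, 0.00317 and 0.0226). HMMR, a spindle-associated protein, was under 3 reads in 12 of 28 libraries, and its values, called lower in Hep3B (-0.67), HuH7 (-0.71) and PLC/PRF/5 (-0.75), turned positive in Hep3B (0.38) and HuH7 (0.22) once trends with amplicon GC content and length were removed. NUSAP1, which binds microtubules near chromosomes, rose in HepG2 (1.21, adjusted p = 0.011) and fell in Hep3B (-1.92, adjusted p = 7.58e-05) and HuH7 (-0.93, adjusted p = 0.0318).

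BIRC5, survivin, and CDCA8, borealin, are passenger subunits that place Aurora B on chromosomes, and both rose in HepG2. BIRC5 had 333, 318 and 341 CPM in the cultures and 673, 724, 735 and 749 in the tumours in HepG2 (1.12 ± 0.17, adjusted p = 1.94e-05). In Hep3B it had 659.6, 678 and 705 CPM in the cultures and 537, 791, 944 and 615 in the tumours, on both sides of the cultures (0.05 ± 0.17, adjusted p = 0.835), a value that became -0.93 under scaling by totals alone and also with the GC and length trends removed. HuH7 had 519, 500.3 and 512 CPM in the cultures and 526, 442, 515 and 350.3 in the tumours (-0.17 ± 0.17, adjusted p = 0.432) and PLC/PRF/5 667, 492 and 632 CPM in the cultures and 559, 497, 511 and 568 in the tumours (-0.15 ± 0.17, adjusted p = 0.613), so the BIRC5 groups overlapped in all lines but HepG2. CDCA8 rose in HepG2 from 22.5 ± 1.43 to 40.8 ± 7.42 CPM (0.82 ± 0.26, adjusted p = 0.022) and fell in Hep3B from 58.7 ± 0.462 to 20.6 ± 9.54 (-1.57 ± 0.26, adjusted p = 2.9e-05) and in HuH7 from 62.5 ± 1.05 to 27.6 ± 9.37 (-1.22 ± 0.26, adjusted p = 0.000621).

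TOP2A, the topoisomerase that untangles sister chromatids, separated the lines cleanly. In HepG2 it had 251, 248 and 249.7 CPM in the cultures and 588, 510.5, 489 and 534 in the tumours (1.08 ± 0.12, adjusted p = 3.62e-07). In Hep3B it fell from 671, 673 and 630.2 CPM to 398, 408, 339 and 388 (-0.78 ± 0.12, adjusted p = 1.77e-05), and in HuH7 from 496, 514 and 474 to 299.8, 279, 223 and 263 (-0.898 ± 0.12, adjusted p = 3.82e-06). The groups were apart in these 3 lines. In PLC/PRF/5, with 528, 456 and 485 CPM in the cultures and 480.3, 483, 416 and 456 in the tumours, they overlapped (-0.09 ± 0.12, adjusted p = 0.685).

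MKI67, the Ki-67 protein that coats mitotic chromosomes and is the usual stain for cycling cells, was called in no line. HepG2 had 44.6, 46.6 and 43.7 CPM in the cultures and 111, 99.98, 13.8 and 88.6 in the tumours (0.44 ± 0.64, adjusted p = 0.671). Tumour 3 was below every culture and the other 3 tumours above; without the libraries numbered 3 the difference was 1.18 (adjusted p = 0.000519 by limma). HuH7 had 133, 130.3 and 132 CPM in the cultures and 59.4, 84.7, 9.103 and 151 in the tumours, with tumour 4 above the cultures and the rest below (-1.32 ± 0.64, adjusted p = 0.0985). Hep3B, at 84.7, 90.3 and 83.1 CPM in the cultures and 50.2, 57.4, 40.4 and 94.3 in the tumours (-0.57 ± 0.64, adjusted p = 0.478), and PLC/PRF/5, at 139, 181 and 134 CPM in the cultures and 158, 129, 53.5 and 137 in the tumours (-0.44 ± 0.64, adjusted p = 0.724), overlapped too.

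Read across lines, 12 members rose in HepG2 and fell in Hep3B, which is 63.2% of the 19 and 50% of the 24, and 34.3% of the 35 members against 0.878% of all genes. They were BUB1B, TTK, CDC20, UBE2C, CENPA, KIF11, KIF20A, KIF23, KIF4A, NUSAP1, CDCA8 and TOP2A. Between HepG2 and HuH7 there were 8 such members (42.1% of the 19 and 38.1% of the 21, and 22.9% of members against 0.985% of all genes), and 7 (BUB1B, CDC20, KIF11, KIF4A, NUSAP1, CDCA8 and TOP2A) did so against both lines (20% against 0.359%). In both Hep3B and HuH7, 18 members fell (51.4%, against 12.3% of all genes). CCNA2, NUF2, TPX2, ASPM and BIRC5 were called in HepG2 alone, with values in the other lines between -0.704 (CCNA2 in Hep3B) and 0.34 (ASPM in HuH7).

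The difference between the lines was tested directly. The HepG2 response minus the mean response of the other 3 lines was positive for all 35 members, with a median of 1.41 and a range of 0.65 (HMMR) to 2.21 (NUSAP1), while the median of all genes was -0.03. By limma it was called for 29 members, all higher (6.9% of all genes were called higher and 13.4% lower); CCNB2, AURKA, BUB1, CENPF, NDC80 and MKI67 did not pass. TOP2A (1.67 ± 0.14, adjusted p = 4.4e-09), KIF4A (1.52 ± 0.15, adjusted p = 5.9e-08) and BUB1B (1.72 ± 0.18, adjusted p = 1.16e-07) had the smallest p-values. NUSAP1 (2.21 ± 0.398, adjusted p = 0.0002), KIF2C (2.17 ± 0.43, adjusted p = 0.000618) and AURKB (2.06 ± 0.39, adjusted p = 0.000324) had the widest gaps. CCNB1 was at 2.04 ± 0.65, adjusted p = 0.0255, and CDK1 at 1.97 ± 0.62, adjusted p = 0.0255. Without the libraries numbered 3, all 35 were called, and the share of all genes called higher was 15.7%.

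Several of these calls were close to the threshold. That of ASPM (1.38 ± 0.49, adjusted p = 0.049) was lost in 23 of 28 refits that left out 1 library (adjusted p 0.00504 to 0.111), that of CDK1 in 4, all of them HepG2 libraries (0.00285 to 0.0838), and that of CCNB1 in 3, also of HepG2 (0.00712 to 0.0734). CDK1 was also not called by edgeR on recovered reads (adjusted p = 0.0645). Across these refits the count of members called ran from 22 to 34, with no share of all genes given beside it.

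Set against single lines, HepG2 differed from Hep3B in 27 members (9.96% of all genes called higher), from HuH7 in 24 (7.73%) and from PLC/PRF/5 in 17 (5.69%), all higher, while 13.8%, 13.9% and 10.1% of all genes were called lower, and the value was positive for all 35 in each. These comparisons share the HepG2 libraries and are not independent. The median gap was 1.63 to Hep3B, 1.48 to HuH7 and 1.17 to PLC/PRF/5. AURKB was 3.33 ± 0.47 against Hep3B (adjusted p = 9.43e-06), 2.08 ± 0.47 against HuH7 (adjusted p = 0.00197) and 0.77 ± 0.47 against PLC/PRF/5 (adjusted p = 0.339). TOP2A was 1.86 ± 0.18, 1.98 ± 0.18 and 1.17 ± 0.18 (adjusted p = 1.73e-08, 6.87e-09 and 2.31e-05), so it passed against each line.

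HepG2 stood farther from the other lines in the cultures than in the tumours. The divergence above is, by its definition, the in ovo difference minus the in vitro difference given here. These differences therefore split the divergence into its parts and are no further support for it. In vitro, HepG2 was below the mean of the other 3 lines for all 35 members, by a median of -1.52, and 31 were called lower by limma (26.1% of all genes) and 0 higher (24.1%), with 0 higher also at an unadjusted p under 0.05 and by edgeR. CDC25C, AURKA, BUB1 and CENPA did not pass. The fit holds 1 estimate of spread per gene for all 8 groups. The p-values among cultures therefore carry the wider spread of the tumours, and those among tumours the narrower spread of the cultures. In ovo the median was 0.08, with 6 members called higher (23.3% of all genes) and 5 lower (30.7%). Higher in HepG2 tumours were CDC25C (0.85), PLK1 (0.75), CENPA (1.08), BIRC5 (0.38), CDCA8 (0.65) and TOP2A (0.56). Lower were TTK (-0.85), CENPF (-1.06), KIF23 (-0.69), PRC1 (-0.68) and ASPM (-0.84). Without the libraries numbered 3 the higher count was 11 and the lower 5, with 30% and 33.4% of all genes.

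Single members show the shift in place. KIF4A stood at 16.99 ± 1.66 CPM in HepG2 cultures against 43.6 ± 2.71, 59.3 ± 2.24 and 62.9 ± 0.565 in those of Hep3B, HuH7 and PLC/PRF/5 (-1.63 ± 0.12, adjusted p = 9.49e-12). In tumours the 4 means were 32.9 ± 3.82, 26.5 ± 3.32, 33.9 ± 4.13 and 49.7 ± 3.57 CPM (-0.11 ± 0.1004, adjusted p = 0.384). PRC1, by contrast, stayed lower in HepG2 in both settings (-1.91 ± 0.12 in vitro and -0.68 ± 0.11 in ovo; adjusted p = 2.05e-12 and 8.14e-06). ASPM too was lower in both (-2.22 ± 0.37 and -0.84 ± 0.32; adjusted p = 1.82e-05 and 0.0308), but the in ovo call was lost without HepG2 tumour 1, 2 or 4. MKI67 was lower in HepG2 cultures (-1.39 ± 0.56, adjusted p = 0.0419), a call lost in 12 of 28 refits without 1 library (adjusted p 0.00713 to 0.11). It was at -0.18 ± 0.49 in ovo. Both SEs rest on the spread shared by cultures and tumours.

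**Figure D4:**
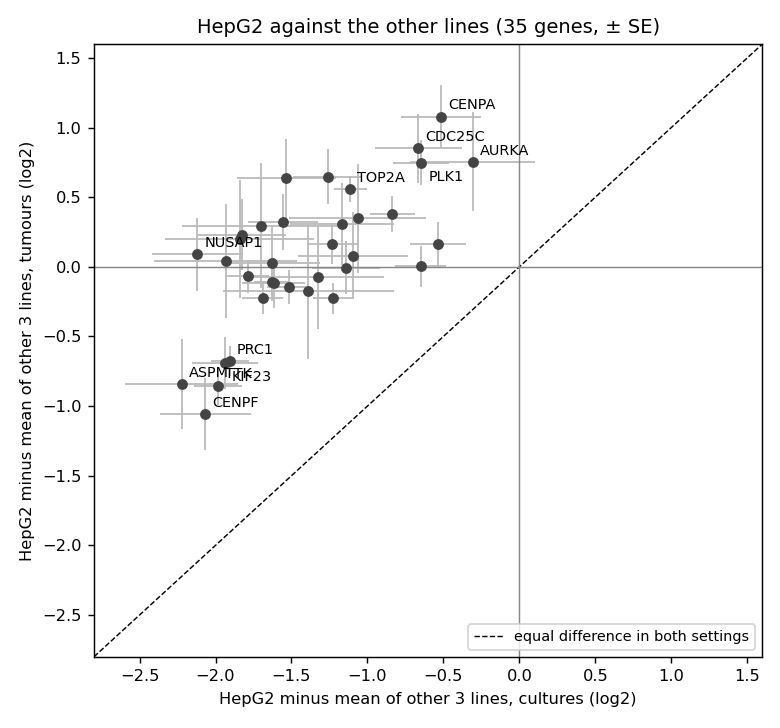
HepG2 minus the mean of the other 3 lines on the log2(CPM + 1) scale, in cultures (horizontal axis) and in tumours (vertical axis), for the 35 mitosis genes (points, bars ± SE); the dashed line marks an equal difference in both. All 35 points lie left of 0, and they straddle 0 on the vertical axis, from -1.06 (CENPF) to 1.08 (CENPA). All lie above the dashed line, which restates the positive divergence of all 35.

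Taken with HepG2, the 4 lines were closer to one another in ovo than in vitro for these genes. This draws on the same line means as the divergence and is not independent of it. The mean levels of Hep3B, HuH7 and PLC/PRF/5 alone lay farther apart in tumours. They were 5.71, 5.67 and 5.86 in cultures and 4.59, 4.80 and 5.38 in tumours. The SD between the 4 line means on the log2 scale had a median over members of 0.832 in cultures and 0.484 in tumours, and 27 of 35 members (77.1%) had the smaller value in tumours. Over all genes the median went the other way, from 0.617 to 0.728, and 39.5% were smaller in tumours. HepG2 was the lowest line in cultures for 34 of 35 members (97.1%, against 29.3% of all genes) and in tumours for 5 (14.3%, against 22.8%).

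The size of a response went with the length of the amplicon that read it. Over the 35 members, Spearman's rho between the log2 difference and amplicon length was -0.402 in HepG2, -0.755 in Hep3B and -0.607 in HuH7, with -0.431 in PLC/PRF/5. Over all genes it was -0.293, -0.485, -0.341 and -0.213. These are correlations across genes that share the same libraries and are given as a description. With GC content the members gave 0.507, 0.284, 0.343 and 0.456, and all genes 0.274, 0.458, 0.505 and 0.389.

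In Hep3B 16 of the 17 members with amplicons over 143 bases fell, with a median of -1.72, against 8 of the 18 shorter ones, with a median of -0.53. In HuH7 14 of 17 and 7 of 18 fell, with medians of -1.21 and -0.52. In HepG2 7 of 17 long and 12 of 18 short ones rose, with medians of 0.35 and 0.88. Over all genes, split at the same length, the medians of long and short amplicons were -0.58 and 0.30 in Hep3B, -0.27 and 0.24 in HuH7 and -0.22 and 0.10 in HepG2. The long amplicon of CDK1 (230 bases, -3.46 in Hep3B) and the short one of TPX2 (92 bases, -0.09), whose sequences stand above, lie near the ends of this range. The part of length in the responses was not tested.

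The divergence of HepG2 was called in 14 of 18 shorter and 15 of 17 longer members, with medians of 1.25 and 1.72 (rho 0.583 with length and 0.0098 with GC content). Over all genes the medians of short and long amplicons were -0.14 and 0.08 (rho 0.172 with length and -0.306 with GC content). With trends on GC content and length removed in every library, an alternative listed with earlier results known, 21 members rose in HepG2, 22 fell in Hep3B and 17 in HuH7, with 5 in PLC/PRF/5. Of all genes, 13.4% then rose in HepG2, and 23.0%, 17.6% and 6.64% fell in Hep3B, HuH7 and PLC/PRF/5. The divergence was called for 29 members (8.56% of all genes higher), and HepG2 was lower in cultures for 32 (28.7% of all genes). CCNF was no longer called in Hep3B, nor CENPE in HuH7.

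**Figure D5:**
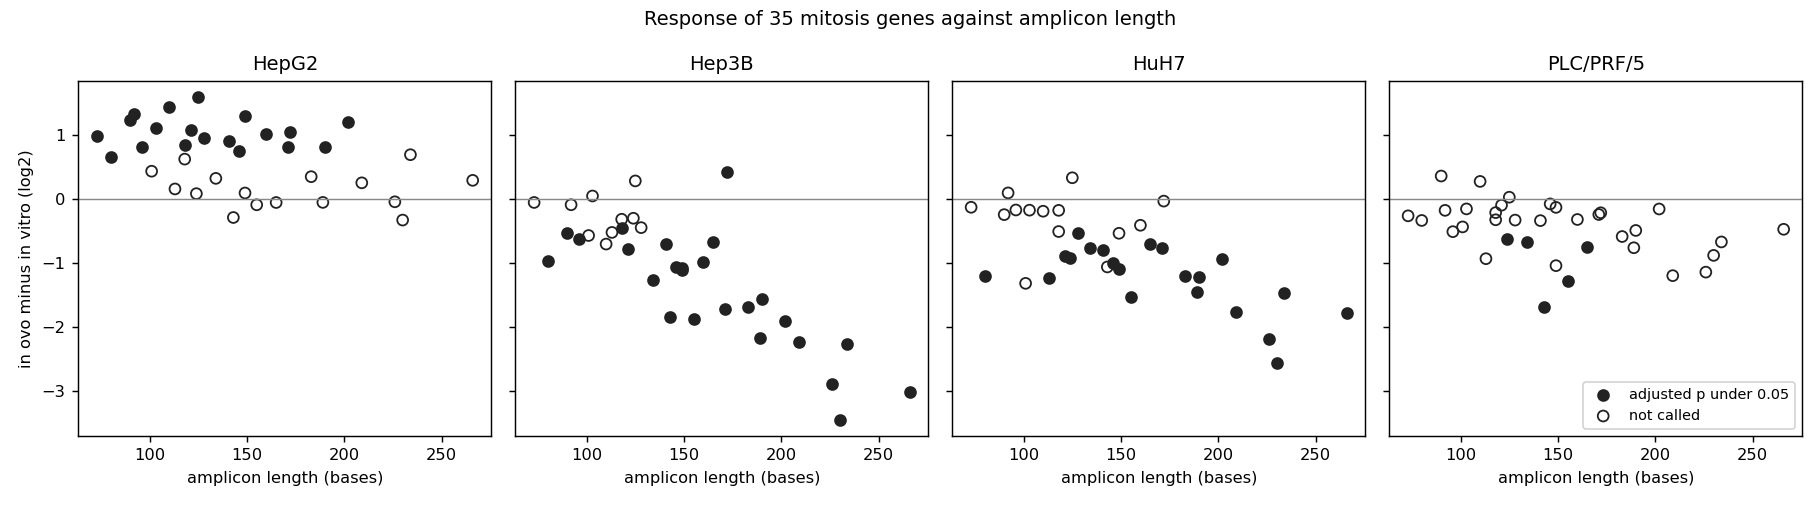
Difference in ovo minus in vitro on the log2(CPM + 1) scale (vertical axis) against amplicon length in bases (horizontal axis) for the 35 mitosis genes in each line, filled where the adjusted p was under 0.05 by limma. Values run downward with length in each line, with rho of -0.755 (Hep3B), -0.607 (HuH7), -0.431 (PLC/PRF/5) and -0.402 (HepG2). The HepG2 values above 0 are found from 73 to 266 bases.

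The libraries numbered 3 moved a shared set of members. In all 4 lines CCNB2, CDK1, AURKA, BUB1, CENPE, NDC80, KIF2C, KIF4A, PRC1, DLGAP5, MKI67 and TOP2A (12 members) were lower in tumour 3 than in any other tumour of the line, and TPX2 was higher. In at least 3 lines, 20 members were lower and 8 higher. MKI67 in tumour 3 was 2.76 below the mean of the other tumours in HepG2 on the log2 scale, 0.67 in Hep3B and 3.19 in HuH7, with 1.38 in PLC/PRF/5. ASPM was 2.31 above it in HepG2 and 1.97 in HuH7, but 0.34 in Hep3B and 0.07 in PLC/PRF/5. Over all 13100 genes, the deviations of these libraries from the other tumours of their line correlated between lines with Pearson's r of 0.116 to 0.862 over 6 pairs. These libraries also share the letter D in their titles, as those numbered 4 share E. No label says what the number or the letter stands for.

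Other genes of the division cycle, in lists drawn up with earlier results known, were counted by limma in the same fit. They are to be read against the shares of all genes. In HepG2 12.1% rose and 13% fell, in Hep3B 24.6% rose and 27.4% fell, and in HuH7 23.6% rose and 19.8% fell. In PLC/PRF/5 11.9% rose and 5.61% fell, while 6.9% diverged higher and 13.4% lower. Of 24 further spindle, centrosome and cytokinesis genes, 9 rose in HepG2, 15 fell and 2 rose in Hep3B, 13 fell and 1 rose in HuH7 and 1 fell in PLC/PRF/5, and the HepG2 divergence was called for 14, all higher (median 1.14). RACGAP1, the GTPase-activating partner of KIF23, was at 1.51 and SPAG5, a spindle protein, at 1.77 in that contrast (adjusted p = 4.18e-08 and 2.77e-08). Genes named from this and the following lists were taken from those with the smallest adjusted p in the divergence. Their divergence values are therefore part of what chose them. Of 15 condensin, cohesin and separation genes, 5 rose in HepG2, 9 fell and 3 rose in Hep3B, 9 fell and 1 rose in HuH7, and 10 diverged, among them ESPL1, separase (1.15, adjusted p = 5.76e-05). Of 23 further kinetochore and checkpoint genes, 8 rose in HepG2, 12 fell and 3 rose in Hep3B, 7 fell and 3 rose in HuH7, and 10 diverged. MAD2L1, the checkpoint protein Mad2, diverged by 1.73 (adjusted p = 0.000833). It fell by 1.98 in Hep3B and by 1.97 in HuH7 on the log2 scale and was at 0.14 in HepG2. Its levels were near the floor, with means of 0.297 CPM in Hep3B tumours, 0.906 in HuH7 tumours and 1.31 in HepG2 cultures. The lowest tumour of Hep3B and of HuH7 was at 0.

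Of 31 DNA replication genes, 12 rose in HepG2, 13 fell and 4 rose in Hep3B and 21 fell in HuH7, and 21 diverged, all higher, with a median of 1.28. MCM4, a subunit of the replicative helicase, rose by 1.12 in HepG2 (adjusted p = 1.16e-07) and fell by 0.43 in Hep3B and by 0.77 in HuH7 (adjusted p = 0.00476 and 1.89e-05). Of 18 regulators of CDK1 and related kinases, 3 rose and 1 fell in HepG2, 13 fell in Hep3B and 6 fell in HuH7. In this list 8 diverged higher, among them CDC25A, a phosphatase of the same family as CDC25C, at 2.11 (adjusted p = 6.69e-06 by limma). The 1 that diverged lower was CCND2, cyclin D2, at -1.95 (adjusted p = 0.000207 by limma). Of 17 G2/M transcription factors and MuvB subunits, 5 rose and 5 fell in Hep3B and 3 rose and 4 fell in HuH7. Those counts lie near the shares of all genes in these lines. In HepG2 5 rose, and 6 diverged higher. Among them were LIN9 (1.51, adjusted p = 0.000131) and E2F8 (1.94, adjusted p = 9.87e-05). LIN9 was near the floor, with means of 0.403 CPM in HepG2 cultures and 0.191 in Hep3B tumours.

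Of 14 other subunits and regulators of the anaphase-promoting complex, 1 rose in HepG2, 7 fell and 2 rose in Hep3B, 5 fell and 2 rose in HuH7, and the median divergence was 0.29. Of 20 brakes of the cell cycle, 2 rose and 3 fell in HepG2 and 8 rose and 3 fell in Hep3B. In HuH7 6 rose and 3 fell, in PLC/PRF/5 6 rose and 1 fell, and 2 diverged higher and 4 lower. Their HepG2 counts lie near the shares of all genes there (12.1% and 13%), and their HuH7 and divergence counts are not far from the shares. The 2 that diverged higher were BTG2 (1.16) and CDKN2C (1.51), which rose in HepG2 by 1.46 and 1.03 on the log2 scale. Among the 4 lower were CDKN2B (-3.46) and CDKN1C (-1.72). CDKN1C, the inhibitor p57, rose by 1.61 in Hep3B and 2.26 in HuH7, with 1.58 in PLC/PRF/5 (adjusted p = 0.00172, 7.85e-05 and 0.00616 by limma). It was at 0 CPM in the HepG2 cultures and at most 0.32 CPM in the HepG2 tumours, and under 3 reads in each. The HuH7 cultures were at 0.22 to 0.768 CPM.

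The genes whose pattern was most like the mean of the centred members over the 28 libraries were CLSPN (Pearson's r 0.944), SMC2 (0.935), LIN9 (0.926), FANCD2 (0.921), NEK2 (0.918), ANLN (0.918), CENPL (0.917), ESCO2 (0.907), CKS1B (0.902) and TK1 (0.901). The 28 points share 4 lines, 2 settings and the library effects above, so r is a description only. Since the members' mean carries the HepG2 divergence, that of these genes, 1.38 (CENPL) to 1.84 (CKS1B), is part of what chose them and is given with no test. TK1, thymidine kinase of the salvage pathway, was at 0.46 in HepG2, -1.83 in Hep3B and -1.11 in HuH7, with -0.48 in PLC/PRF/5 on the log2 scale.

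Sums of genes used as markers of other cell types moved as follows. They are human genes that the lines themselves may express, while host cells of the egg are chicken. The sums are therefore no measure of host cells. The endothelial list (8 genes) summed to 9.68 to 12.3 CPM in HepG2 cultures and 49.8 to 60.3 in HepG2 tumours, with KDR and ROBO4 at 0 in the tumours, and to 1.34 to 2.05 CPM in Hep3B cultures and 8.06 to 10.97 in its tumours. In HuH7 it was at 21.4 to 23.3 and 5.74 to 20.96 CPM, and in PLC/PRF/5 at 0.236 to 0.859 and 2.35 to 7.59. The leukocyte list was at 380.3 to 394 CPM in HepG2 cultures and at 8.08 to 58.9 in its tumours, with PTPRC and CD3E at 0 in both. Of its 8 genes, 2 were above the floor in any HepG2 culture and 3 in any HepG2 tumour. The leukocyte sum was lower in tumours of the other lines too. It was at 21.1 to 23.2 and 4.37 to 10.4 CPM in Hep3B, 37.03 to 41.1 and 6.56 to 8.61 in HuH7 and 18.3 to 23.3 and 11.8 to 14.8 in PLC/PRF/5. The fibroblast list was at 18.6 to 21.96 CPM in HepG2 cultures and 4.16 to 4.77 in its tumours, and at 353 to 372 and 553 to 864 in those of HuH7. In Hep3B it was at 104 to 106 and 275 to 508 CPM, and in PLC/PRF/5 at 140.1 to 189.6 and 59.9 to 89.5. The part of such markers in the members' values was not tested.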

How the data were processed

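The members and gene lists were chosen with earlier results of these data known. Libraries were made from 500 ng of total RNA with a targeted amplicon kit, per the labels' protocols, and the submitters' processing notes name hg38; for the aligner and counter nothing is given in the sources used. The deposited values, described as counts, are a scaled signal: each of the 28 libraries was brought by the authors to a total of 500000. At least 99.97% of values per library were within 0.01 of a whole read once the scale was undone, which gave the reads and depths. A KRT18 cell that could not be read was filled with 4021 CPM, and 7 repeated names were made unique.

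Values were taken as log2(CPM + 1) after TMM scaling (edgeR 4.0.16), for the 13100 genes past filterByExpr with a minimum of 10 reads (5861 were left out). Changes are on that scale, which understates those of low genes. limma 3.58.1 (trend, R 4.3.3) was fitted over all 8 groups with 20 residual degrees of freedom and two-sided tests, with Benjamini-Hochberg adjustment over all genes. Each gene had 1 estimate of spread for cultures and tumours alike, though the tumours spread more. Errors after ± are SE for log2 differences and SD for levels. The script was tested on simulated data. Of the 26 members averaging at least 10 CPM, the rule gave in every library the largest and smallest called change of each line, with MKI67, TOP2A, CCNB1, CDK1, AURKB, PLK1, BIRC5 and TPX2. Alternatives were scaling by DESeq2 1.42.0 size factors or totals, other filters and pseudocounts of 0.25 and 5, edgeR on recovered reads, a replicate block, lines fitted alone, GC and length trends removed, and libraries left out.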

Additional observations from a re-analysis of the deposited data

Results flagged for a closer look

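Of 144 groups of 4 tumours, for the 35 members and their mean in 4 lines, 11 held a library whose gap to its nearest neighbour passed Dixon's 95% limit, and chance alone passes about 1 group in 20. Of these 11, 8 were the library numbered 3. In HepG2, ASPM at 469 CPM and NUSAP1 at 75.5 were the highest of the 4 tumours, and MKI67 at 13.8 the lowest. In HuH7, ASPM at 572 CPM was the highest, and CCNF at 106 and KIF20A at 9.78 the lowest. In Hep3B, TPX2 at 443 CPM was the highest, and in PLC/PRF/5 AURKA at 44.5 was the lowest. The others were PBK in Hep3B tumour 4, the highest at 0.231 CPM, a value under 3 reads, CENPF in Hep3B tumour 1, the lowest at 109 CPM, and PLK1 in PLC/PRF/5 tumour 2, the lowest at 750 CPM. What these libraries share was not tested.

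The HepG2 response differed from the mean response of the other 3 lines for 29 members by limma (adjusted p under 0.05), in log2 units and always higher. Among the cyclins, kinases and their partners these were CCNA2 (1.65), CCNB1 (2.04), CCNF (0.998), CDK1 (1.97), CDC25C (1.51), AURKB (2.06), PLK1 (1.396), BUB1B (1.72), TTK (1.13), PBK (0.701), CDC20 (1.47), UBE2C (1.38). Among the kinetochore genes and kinesins they were CENPA (1.59), CENPE (1.99), NUF2 (1.14), KIF11 (1.499), KIF20A (1.88), KIF23 (1.25), KIF2C (2.17), KIF4A (1.52). The rest, spindle, passenger and chromosome proteins, were TPX2 (1.39), PRC1 (1.23), ASPM (1.38), DLGAP5 (1.47), HMMR (0.65), NUSAP1 (2.21), BIRC5 (1.21), CDCA8 (1.91) and TOP2A (1.67).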

How the results depend on the processing

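All members kept the sign of the HepG2 divergence under every alternative run. By setting, the values that moved were these. With scaling by totals alone, where the all-gene median shifted by -0.82 in Hep3B and by -0.20 to -0.22 in the other lines, 0 members were called higher in Hep3B, 10 fell in PLC/PRF/5, and Hep3B values turned negative for CCNF (-0.55) and BIRC5 (-0.93); all genes in Hep3B then split into 1205 higher and 6820 lower, against 3220 and 3594. In PLC/PRF/5 the lower count was 1 with at least 10 CPM in 3 libraries (28 members tested), 2 with a pseudocount of 0.25, 2 by edgeR and 16 with the line fitted alone. Of all 13100 genes, 1202 were lower in PLC/PRF/5 with totals alone, 556 with that pseudocount and 543 by edgeR. With at least 10 CPM in 3 libraries it was 510 of 9185. No share of all genes is given for the line fitted alone, so the 16 cannot be read against one. Without the 4 libraries numbered 3 the PLC/PRF/5 lower count of members was 13, with 1 higher, and 11 members were higher in HepG2 tumours than in the other lines. With the GC and length trends removed, 0 were higher in Hep3B (21.2% of all genes), and values reversed for HMMR in Hep3B (0.38) and HuH7 (0.22) and BIRC5 in Hep3B (-0.93). With those trends and libraries both removed, chosen after seeing the data, 30 rose in HepG2, 0 in Hep3B, 14 fell in PLC/PRF/5 and 11 were higher in HepG2 tumours. Of all 12981 genes tested in that setting, the counts were 2584, 3242, 1654 and 4108. Reversed values there were CCNB1 (0.68), BUB1 (0.65) and DLGAP5 (0.63) in HepG2, ASPM (-0.47), HMMR (0.31) and BIRC5 (-0.92) in Hep3B, ASPM (-0.65) and HMMR (0.0216) in HuH7, and NUSAP1 in HepG2 against the other lines in ovo (-0.28). The cause was not tested. Leaving out 1 library at a time gave 15 to 20 higher in HepG2, 21 to 24 lower and 0 to 1 higher in Hep3B and 15 to 23 lower in HuH7. In PLC/PRF/5 it gave 1 to 5 lower and 0 to 1 higher, and 22 to 34 diverged. No share of all genes is given for these refits, so the ranges show only how far the member counts moved.

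Replicate numbers gave no pairing: deviations of same-numbered libraries correlated at -0.07 to 0.45 over 12 pairs, 4 of them over 0.1, and 5 correlated best with their own number. With the number as a block, 18 rose in HepG2, 23 fell in Hep3B and 22 in HuH7, with 8 in PLC/PRF/5, and 32 diverged. Of all 13100 genes, 1924 then rose in HepG2, 4014, 3190 and 1095 fell in Hep3B, HuH7 and PLC/PRF/5, and 1003 diverged higher. Depth limits PBK, HMMR and CDK1 most, with under 3 reads in 13, 12 and 5 of 28 libraries. CENPA and CENPE follow, with 4 each, then CCNB2 and NDC80, with 3 each.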
